A study of Mus musculus with 4 samples.

Results

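The Wnt signalling genes described here are the ligands of the Wnt family, the frizzled receptors, the co-receptors Lrp5, Lrp6, Ror1 and Ror2, the secreted antagonists of the Sfrp and Dkk families with Wif1 and Frzb, and the feedback gene Axin2. They were picked by a rule on gene symbols, and the rule was set with earlier results of these data known. The rule gave 44 of the 34795 genes on the array: 19 ligands, 10 frizzled receptors, 4 co-receptors, 10 antagonists and Axin2. They were read by 54 of 55681 probes of 60 bases, and the probe with the highest mean signal stood for a gene. RNA came from 3T3-L1, an embryonic mouse fibroblast line widely used because hormones in the dish turn it into fat cells. It was first brought to the adipocyte stage and kept for 7 days with PBS (the control), with 25 µM daidzein (an isoflavone of soy), with 100 µg/ml PT (an extract of pig testis) or with both agents at those doses, daidzein+PT. Each of the 4 groups was read on 1 Agilent single-colour array, so no group has replicates and a comparison of 2 arrays has no test; only a fit of both agents over all 4 arrays, given later, has p-values. The title of the series asks about adiponectin, and the labels give no question about Wnt genes.

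Wnt proteins are secreted lipid-modified ligands that bind a frizzled receptor. With Lrp5 or Lrp6 as partner they keep beta-catenin from being degraded, and with partners such as Ror2 they act on cell shape and movement instead. Secreted frizzled-related proteins bind the ligands, whereas Dkk1, Dkk2 and Dkk4 act at Lrp5 and Lrp6. In fat, signalling through beta-catenin is known to hold precursor cells back from becoming adipocytes, and Wnt10b, Wnt10a and Wnt6 are the ligands best known for it.

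Levels are given as the scaled log2 signal, which is log2 of the background-subtracted spot intensity minus the 75th percentile of that array, so 0 is the level of that percentile. The level of 1 gene cannot be set against that of another, because probes differ in brightness. Without replicates, the only spread between arrays came from how far the PT difference with daidzein departed from the PT difference without it, over genes of like signal. Scaled to a difference between 2 arrays, that SD was 0.33 for the dimmest, 0.14 for the middle and 0.11 for the brightest of 3 groups of about 6085 genes, and it stands after ± below. Any true dependence of one agent on the other is part of it. All 4 arrays lay on 1 slide, with PBS and daidzein in its first row and PT and daidzein+PT in its second row, so that PT and the slide row cannot be told apart. Between 49.7% and 51.4% of probes were well above background on an array. The 5 adipocyte markers (Adipoq, Fabp4, Plin1, Cidec and Slc2a4) were well above background on every array, and the log2 of their summed signal was 6.37 on the PBS array, 8.91 on the daidzein array, 7.51 on the PT array and 9.59 with both agents. The 5 preadipocyte markers (Dlk1, Pdgfra, Ly6a, Thy1 and Cd34) were read on every array too, with 9.34, 8.91, 9.31 and 8.95 in that order. Markers of other cells were read in part. Of the myeloid markers Csf1r, Cd68 and Itgam were well above background on every array and Ptprc and Emr1 on none, and of the endothelial ones Pecam1 and Kdr on every array and Cdh5 and Tek on none. Of the testis markers Prm1, Prm2 and Cyp17a1 were read on every array and Ddx4, Dazl, Tnp1 and Amh on none, and of the muscle markers only Acta1 was read, with Myod1, Myog and Ckm on none. On the same log2 scale these lists ranged over the arrays from 5.07 to 5.19 (myeloid), 3.61 to 3.76 (endothelial), 2.68 to 2.91 (testis) and -0.33 to -0.13 (muscle).

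All 4 arrays read 18 of the 44 genes well above background, 8 more were read on 1 to 3 arrays and 18 on none. That is 40.9% of the Wnt genes on all 4 arrays, against 52.5% of all genes (18256). The ligands read on every array were Wnt1, Wnt4, Wnt5a, Wnt6, Wnt9a and Wnt10a. The receptors were Fzd1, Fzd2, Fzd3, Fzd4, Fzd5, Fzd7 and Fzd8, the co-receptors Lrp5, Lrp6 and Ror2, and the antagonists Sfrp2 and Dkk3. The genes read on none were the ligands Wnt2, Wnt2b, Wnt3, Wnt3a, Wnt5b, Wnt7a, Wnt7b, Wnt8a and Wnt9b, the receptors Fzd6, Fzd9 and Fzd10, the antagonists Dkk1, Dkk2, Frzb, Sfrp1 and Wif1, and Axin2. Axin2 is a direct target of beta-catenin that feeds back on the pathway, and with Sfrp1, Dkk1 and Dkk2 it cannot be compared here, because their spots were not well above background. The number of Wnt genes read was alike on the arrays, with 21 on the PBS array, 21 with daidzein, 20 with PT and 22 with both.

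**Figure D1:**
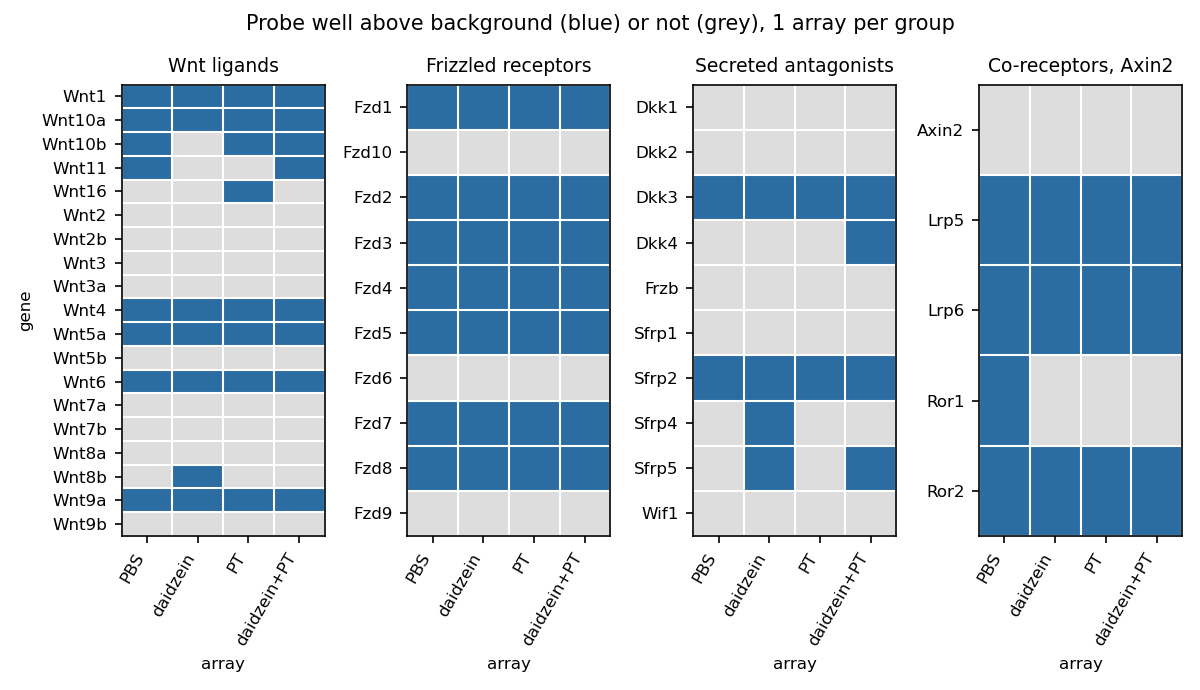
Grid of the 44 Wnt genes (rows, by role) and the 4 arrays (columns); blue marks a probe well above background and grey one that was not. Most rows are one colour throughout, 18 blue on all 4 arrays and 18 grey on all 4, and 8 rows change between arrays.

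Among the ligands, Wnt4, Wnt5a, Wnt6 and Wnt10a were lower with daidzein by more than the spread in both pairs. All 6 ligands read on both arrays were below 0 for daidzein over PBS, with a median log2 difference of -0.47, as were 10616 of all 18915 genes. All 7 read for daidzein+PT over PT were below 0, with a median of -0.56, as were 9511 of all 18514 genes. Wnt1 was below 0 by less than the spread in both pairs, and Wnt9a in 1 of them. Wnt10b, read on both arrays of 1 pair only, was at -0.03. The median over all genes was -0.03 and -0.01 in these comparisons. These comparisons share no array. The signs held under the other scalings for 6 of the 7, and Wnt10b turned above 0 for daidzein+PT over PT with normexp background correction, quantile normalization and the deposited series table. The upstream 250 bases of Wnt6 and Wnt4 are shown first, since these ligands were lower together in both pairs and the windows bear on which of the motifs searched are near their starts. They are RefSeq windows on GRCm38.p6, printed 5′ to 3′ on the strand of the gene, at chr1:74771642-74771891 (plus strand) and chr4:137277385-137277634 (plus strand).
Wnt6: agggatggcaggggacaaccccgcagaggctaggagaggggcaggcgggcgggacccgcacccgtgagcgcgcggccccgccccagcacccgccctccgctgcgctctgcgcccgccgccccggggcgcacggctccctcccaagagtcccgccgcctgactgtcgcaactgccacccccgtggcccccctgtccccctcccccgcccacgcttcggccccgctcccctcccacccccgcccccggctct
Wnt4: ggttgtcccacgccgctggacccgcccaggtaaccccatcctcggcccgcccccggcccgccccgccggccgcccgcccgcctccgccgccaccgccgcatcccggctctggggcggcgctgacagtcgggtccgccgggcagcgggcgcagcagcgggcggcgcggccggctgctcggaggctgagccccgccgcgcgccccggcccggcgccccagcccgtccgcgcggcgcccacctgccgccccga
Neither holds CTTTGA or CTTTGT, the core letters bound by TCF and LEF factors, nor TTGCNNAA, a core of C/EBP sites, nor a direct repeat of AGGTCA spaced by 1 base, as PPARG with RXR binds (both strands searched). Of the 32851 windows of the same length, 27.6% hold CTTTGA or CTTTGT, 9.56% hold TTGCNNAA and 0.033% hold the repeat. The Wnt6 window is 79.6% G or C with 28 CpG, and that of Wnt4 85.2% with 44.

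Wnt6, whose probe lies at chr1:74831461-74831520 on mm9 (plus strand), had a scaled log2 signal of 3.24 with PBS, 2.51 with daidzein, 3.32 with PT and 2.45 with daidzein+PT. The arrays without daidzein were the high ones and both arrays with it were low. The log2 difference was -0.73 ± 0.11 for daidzein over PBS and -0.86 ± 0.11 for daidzein+PT over PT, and it was 0.07 for PT over PBS. Wnt10a, its neighbour on chromosome 1 (probe chr1:74850633-74850692, plus strand), had -1.45, -2.11, -1.77 and -2.37 in the same order of arrays. It was again low on both arrays with daidzein, by -0.66 ± 0.33 and -0.60 ± 0.33, but it is a dim probe. With the normexp background correction, which shrinks differences of dim spots, the Wnt10a difference for daidzein+PT over PBS moved from -0.92 to -0.49. Its differences in the daidzein pairs became -0.43 and -0.28, both under 1.5-fold.

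Wnt4, a ligand of the urogenital tract and of several epithelia (probe chr4:136855342-136855401, plus strand), read 0.47 with PBS, -0.07 with daidzein, 0.49 with PT and -0.33 with daidzein+PT. Both arrays with daidzein were below both without it. The differences were -0.55 ± 0.14 and -0.82 ± 0.14, and a dimmer second probe gave -0.61 and -0.56. For PT over PBS the probes disagree, at 0.01 and -0.35. Wnt5a, the ligand best known for signalling without beta-catenin (probe chr14:29336664-29336723, plus strand), read 2.30, 1.89, 2.08 and 1.59, with daidzein differences of -0.40 ± 0.14 and -0.49 ± 0.14. Its PBS array was the highest and its daidzein+PT array the lowest, with a difference of -0.71 between them. Wnt9a (probe chr11:59146953-59147012, plus strand) had -1.24, -1.53, -1.46 and -2.02, and its difference of -0.29 ± 0.33 for daidzein over PBS was within that spread. Wnt1 (probe chr15:98624201-98624260, plus strand) stayed between -0.07 and 0.05 on the 4 arrays, and its other probe was not well above background on any array. Fewer cells that express a ligand and less of its RNA per cell cannot be told apart in such bulk RNA. The 5 preadipocyte markers were also lower in both daidzein pairs, with a median log2 difference of -0.43 for daidzein over PBS and -0.41 for daidzein+PT over PT. For daidzein+PT over daidzein their median was 0.03, with 3 above 0 and 2 below, against a median of -0.26 for the ligands. The part of these markers in the ligand differences was not tested.

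**Figure D2:**
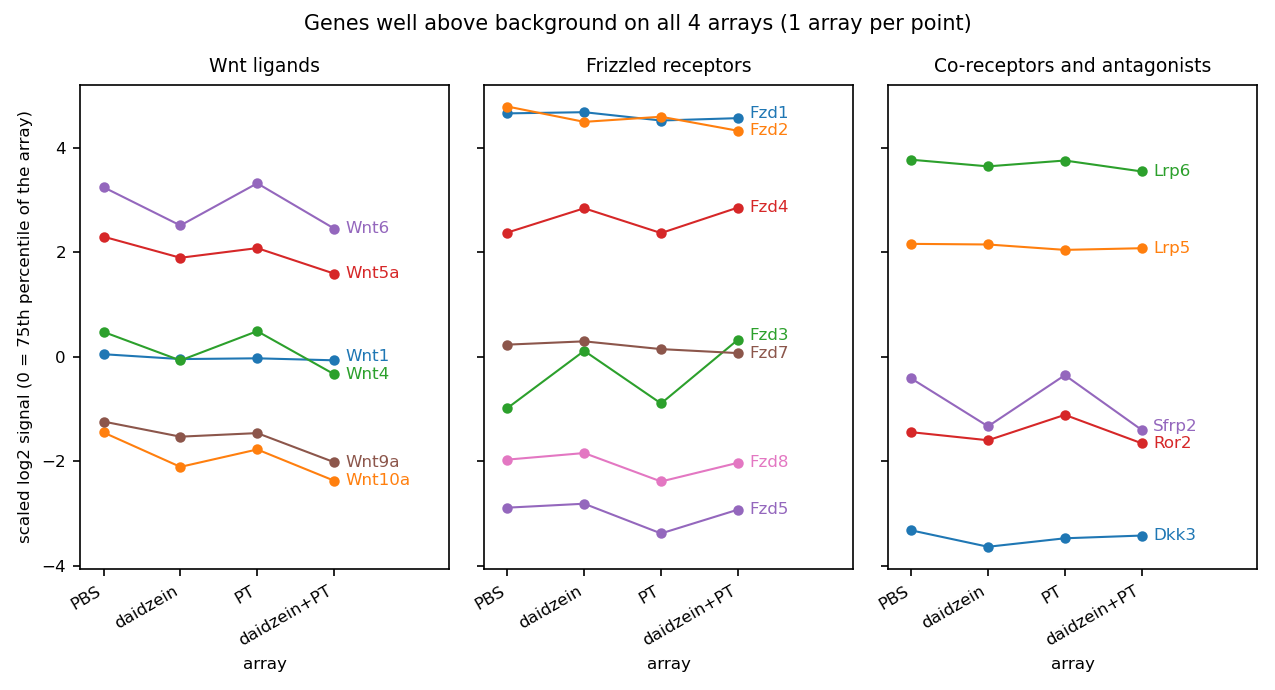
Scaled log2 signal (vertical axis; 0 is the 75th percentile of the array) of the 18 Wnt genes read on all 4 arrays, in the order PBS, daidzein, PT, daidzein+PT, with 1 point per array and lines joining the points of a gene only to guide the eye. Wnt6, Wnt4, Wnt10a and Sfrp2 dip at both arrays with daidzein, and Fzd3 and Fzd4 peak there.

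Wnt10b, the ligand most studied as a brake on fat cell formation (probe chr15:98602209-98602268, minus strand), was dim on every array. It was well above background with PBS (-3.65), PT (-3.56) and daidzein+PT (-3.59) but not with daidzein alone (-4.28). A gene read on 1 of 2 arrays gives only a bound: the read value against the higher of the unread value and the dimmest probe well above background there. This rule holds for the scaled signals alone, and each normexp difference given below for such a gene was smaller than its bound. By that rule Wnt10b was at least 1.55-fold lower with daidzein than with PBS, whereas daidzein+PT differed from PBS by 0.06 ± 0.33. With normexp the measured difference for daidzein over PBS was -0.25, smaller than that bound. Wnt11 was read with PBS (-3.80) and daidzein+PT (-3.93) and not with daidzein (-4.69) or PT (-4.71), which makes it at least 1.57-fold and 1.42-fold lower there, but with normexp the measured differences from PBS were -0.31 and -0.24, again smaller than the bounds. With daidzein+PT, Wnt11 was at least 1.30-fold higher than with PT and 1.43-fold higher than with daidzein (normexp log2 0.30 and 0.37). Likewise, Wnt10b was at least 1.61-fold higher with daidzein+PT than with daidzein (normexp log2 0.33). Wnt8b was read only with daidzein (-2.69) and Wnt16 only with PT (-2.78). Those make Wnt8b at least 3.40-fold higher with daidzein than with PBS and Wnt16 at least 3.20-fold higher with PT than with PBS. In neither case did the daidzein+PT array, which also had the agent, show the gene: Wnt8b was at least 2.66-fold lower there than with daidzein and Wnt16 at least 2.50-fold lower than with PT. The raw spot intensity of Wnt8b was 77.0 with PBS, 124.1 with daidzein, 68.2 with PT and 70.8 with daidzein+PT over a local background of 55 or 56, and that of Wnt16 was 82.8, 81.7, 127.8 and 84.8. Each has a second probe, which was not well above background on any array. With normexp the measured difference was 0.63 for Wnt8b (daidzein over PBS) and 0.49 for Wnt16 (PT over PBS), both under 2-fold and smaller than the bounds. For daidzein+PT against the array that read the gene it was -0.75 and -0.47, again smaller than the bounds.

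Frizzled receptors did not share the direction of the ligands. Fzd3 was over 2-fold higher in both daidzein pairs, and the other 6 that were read differed by less than 1.5-fold in each. Of these, Fzd4 was higher and Fzd2 lower by more than the spread in both pairs. Fzd3, a receptor known from axon guidance and planar cell polarity (probe chr14:65854084-65854142 on mm9, minus strand), read -0.98 with PBS, 0.11 with daidzein, -0.89 with PT and 0.33 with daidzein+PT. Both arrays with daidzein were above both without it. It was 2.14-fold higher for daidzein over PBS (log2 1.10 ± 0.14), 2.33-fold for daidzein+PT over PT (1.22 ± 0.14) and 2.48-fold for daidzein+PT over PBS. With normexp these log2 values were 0.86, 0.99 and 1.01, so that only the last stayed at 2-fold.

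Fzd4, a receptor of Wnt ligands and of norrin, read 2.37, 2.84, 2.36 and 2.85 (probe chr7:96557478-96557537, plus strand). The arrays with daidzein agreed closely with each other, as did those without it, and the differences were 0.46 ± 0.11 and 0.49 ± 0.11, or 1.38-fold and 1.40-fold. The 250 bases before its start (RefSeq, GRCm38.p6, chr7:89404116-89404365, plus strand) are given as the frizzled counterpart to the ligand windows above and hold none of the motifs searched.
Fzd4: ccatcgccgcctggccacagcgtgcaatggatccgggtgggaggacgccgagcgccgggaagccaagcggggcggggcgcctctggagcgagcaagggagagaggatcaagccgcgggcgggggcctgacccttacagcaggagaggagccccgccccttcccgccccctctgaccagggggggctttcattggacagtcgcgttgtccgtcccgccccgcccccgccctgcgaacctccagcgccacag
The window is 72.8% G or C with 25 CpG.

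Fzd1 and Fzd2, a closely related pair of receptors, both read brightly on all 4 arrays. Fzd1 (probe chr5:4754003-4754062, minus strand) read 4.65, 4.68, 4.52 and 4.56, with differences of 0.02 and 0.05 for daidzein that are within 0.11. Fzd2 (probe chr11:102467613-102467672, plus strand) read 4.78, 4.49, 4.59 and 4.32 and was lower by -0.29 ± 0.11 and -0.27 ± 0.11. Its dimmer second probe gave -0.69 and -0.18, so the probes disagree on the size of the first. Fzd7, near Fzd1 and Fzd2 in sequence, ranged from 0.07 to 0.29, with daidzein differences of 0.06 and -0.08, against 0.00 and -0.41 from its second probe. Fzd5 (-2.89, -2.81, -3.38 and -2.92) and Fzd8 (-1.97, -1.84, -2.39 and -2.03) had their lowest value with PT alone, by -0.49 ± 0.33 and -0.42 ± 0.33 against PBS. The second probe of Fzd5, read on all 4 arrays, went the other way for PT over PBS (0.21) and was lowest with daidzein (-3.45, -3.71, -3.25 and -2.98), so the low value of Fzd5 with PT rests on 1 probe.

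Lrp5 and Lrp6, the partners for beta-catenin signalling, differed by at most 0.22 in any comparison of their brighter probes. Lrp5 read 2.16, 2.15, 2.04 and 2.08, and its daidzein differences were -0.01 ± 0.14 and 0.03 ± 0.14. Lrp6 (probe chr6:134400440-134400499, minus strand) read 3.77, 3.64, 3.75 and 3.54, with differences of -0.13 ± 0.11 and -0.21 ± 0.11, and a dimmer second probe gave -0.20 and -0.22. Ror2, a receptor for Wnt5a, read -1.44, -1.60, -1.11 and -1.65, highest with PT alone. It differed by -0.15 ± 0.33 for daidzein over PBS and by -0.54 ± 0.33 (1.46-fold lower) for daidzein+PT over PT, so only the second exceeds the spread. Ror1 was well above background with PBS alone (-4.08) and at -4.91, -4.26 and -4.86 elsewhere.

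Among the secreted antagonists, Sfrp2 was lower and Sfrp5 higher with daidzein. Their upstream 250 bases (RefSeq, GRCm38.p6, chr3:83766071-83766320, plus strand, and chr19:42202253-42202502, minus strand) are shown because these relatives, which both bind Wnt ligands, differed in opposite directions. Capitals mark TTGCNNAA.
Sfrp2: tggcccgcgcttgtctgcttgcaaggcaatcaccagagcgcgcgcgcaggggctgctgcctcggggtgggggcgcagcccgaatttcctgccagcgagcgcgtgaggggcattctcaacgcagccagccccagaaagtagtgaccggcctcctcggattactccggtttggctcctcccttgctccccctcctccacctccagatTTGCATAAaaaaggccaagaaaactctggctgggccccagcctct
Sfrp5: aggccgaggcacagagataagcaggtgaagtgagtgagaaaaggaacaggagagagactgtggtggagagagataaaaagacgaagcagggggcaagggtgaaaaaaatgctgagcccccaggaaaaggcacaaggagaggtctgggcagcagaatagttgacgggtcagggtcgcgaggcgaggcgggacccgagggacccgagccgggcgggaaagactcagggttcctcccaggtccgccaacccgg
The Sfrp2 window holds 1 such match, on the strand of the gene and starting 45 bases before the start site, and none of the other motifs searched. That of Sfrp5 holds none of the motifs. Of the 16 Wnt genes read on an array that have a window, 6 hold CTTTGA or CTTTGT, 2 hold TTGCNNAA (Fzd1 and Sfrp2) and 0 hold the repeat. A match is a description of the letters and not evidence of binding.

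Sfrp2, which fibroblasts and preadipocytes secrete (probe chr3:83577864-83577923 on mm9, plus strand), read -0.41 with PBS, -1.33 with daidzein, -0.35 with PT and -1.40 with daidzein+PT. Both arrays without daidzein were about 1 log2 unit above both with it. The differences were -0.92 ± 0.33 (1.89-fold lower), -1.05 ± 0.33 (2.07-fold lower) and, for daidzein+PT over PBS, -0.98 ± 0.33 (1.98-fold lower). With normexp they were -0.70, -0.74 and -0.72, none of them at 2-fold. Sfrp5, which is made by mature fat cells and binds Wnt5a (probe chr19:42272509-42272568, minus strand), was well above background on both arrays with daidzein, at -3.59 with daidzein and -2.83 with daidzein+PT, and on neither array without it (-4.90 with PBS and -5.02 with PT). It was at least 1.82-fold higher with daidzein than with PBS, at least 2.78-fold higher with daidzein+PT than with PT and at least 3.09-fold higher with daidzein+PT than with PBS. With normexp the measured log2 differences were 0.23, 0.74 and 0.59, all under 2-fold and smaller than those bounds. The raw spot intensities behind them were 82.6 with PBS, 102.0 with daidzein, 80.5 with PT and 112.6 with daidzein+PT, over local backgrounds of 56 to 60. The summed adipocyte marker signal given above ran in the same order on these arrays except that PT lay above PBS, and its part in the Sfrp5 difference was not tested.

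Dkk3, a member of the Dkk family that is not known to bind Lrp5 or Lrp6, read -3.32, -3.63, -3.47 and -3.42, all within 0.33 of each other. Dkk4, an antagonist at Lrp6, was read with daidzein+PT alone (-2.76), against -6.41, -5.75 and -5.17 on the PBS, daidzein and PT arrays, and was at least 3.23-fold higher there than with PBS. Its raw spot intensity was 73.9, 79.2, 85.3 and 123.2, and with normexp the difference from PBS was 0.80, smaller than that bound. Sfrp4 was read with daidzein alone (-4.26), close to the dimmest probes counted as read, and was at least 1.15-fold higher than with PBS, although the normexp difference was 0.07.

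**Figure D3:**
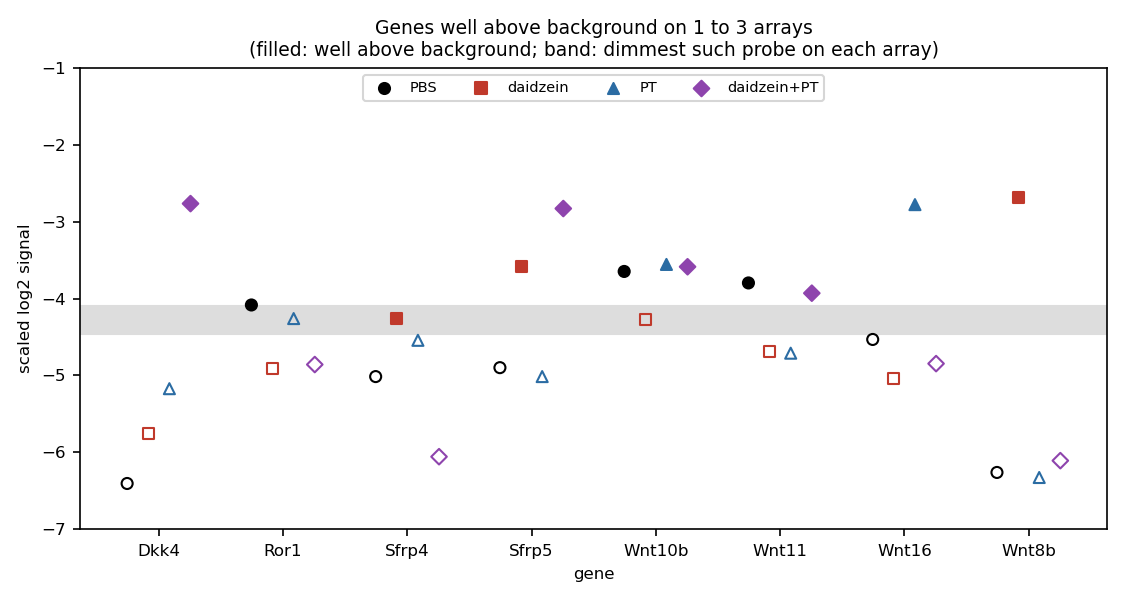
Scaled log2 signal of the 8 Wnt genes well above background on 1 to 3 arrays, with 1 marker per array (filled where well above background, open where not) and a grey band from the lowest to the highest of the arrays' dimmest readable probes. Sfrp5 is filled on both arrays with daidzein, whereas Wnt8b, Wnt16 and Dkk4 are each filled on 1 array only.

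Counted at 2-fold, few Wnt genes differed in any comparison. For daidzein over PBS, Fzd3 was higher and none was lower among the 18 genes read on both arrays, while 1.1% of all genes were higher and 0.37% lower. For daidzein+PT over PT, Fzd3 was higher and Sfrp2 lower among 19, against a background of 2.1% and 0.853%. For PT over PBS none of 19 was higher (background 0.877%) or lower (0.0638%), and for daidzein+PT over daidzein none of 19 was higher (1.09%) or lower (0.102%). For daidzein+PT over PBS, Fzd3 was higher and none was lower among 20 (2.52% and 0.547% of all genes). At 1.5-fold for daidzein over PBS, Fzd3 was higher (3.1% of all genes were) and Wnt6, Wnt10a and Sfrp2 were lower (2.43%). For daidzein+PT over PT, Fzd3 was higher (5.06%) and Wnt4, Wnt6, Wnt10a and Sfrp2 were lower (3.59%). For PT over PBS none was higher (2.66%) or lower (0.643%). For daidzein+PT over daidzein, Sfrp5 was higher (3.25%) and none was lower (0.84%). For daidzein+PT over PBS, 6 of the 20 were lower, namely Wnt4, Wnt5a, Wnt6, Wnt9a, Wnt10a and Sfrp2 (2.95% of all genes), and Fzd3 was higher (6.05%). In that last comparison the median log2 difference of the Wnt genes was -0.15 and that of all genes -0.03.

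The stricter reading asked for 1.5-fold in the same direction in both pairs of an agent, which share no array, among the 18 genes on all 4 arrays. For daidzein, Fzd3 was higher (1.98% of all genes were) and Wnt6, Wnt10a and Sfrp2 were lower (0.97% of all genes). With normexp Wnt10a no longer met this reading, at -0.43 for daidzein over PBS and -0.28 for daidzein+PT over PT. For PT none was higher (0.685%) or lower (0.0657%). With no fold required, 5 of the 18 were higher and 10 lower in both daidzein pairs, against 30.2% and 37.9% of all genes. In the PT pairs 1 was higher (Fzd3) and 11 were lower, against 26.1% and 28.9% of all genes, but with spike-in scaling 3 were higher and 6 lower.

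**Figure D4:**
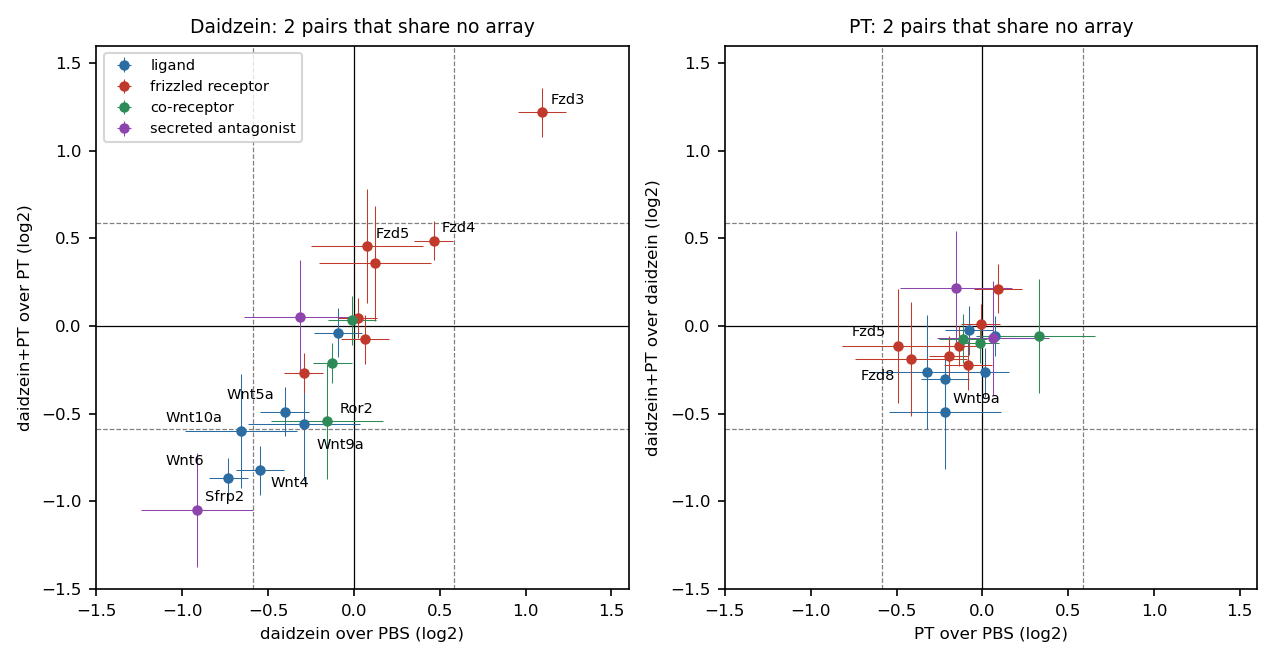
Log2 difference in one pair of arrays (horizontal axis) against the other pair (vertical axis) for the 18 Wnt genes read on all 4 arrays, for daidzein (left) and PT (right); colours give the role, bars ± 1 SD of a difference for genes of like signal, and dashed lines 1.5-fold. For daidzein, Fzd3 lies at 1.10 and 1.22 and Sfrp2 at -0.92 and -1.05, whereas for PT no gene passes 1.5-fold in either pair.

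A fit of both agents together, additive on the log2 scale (limma with an intensity trend, Benjamini-Hochberg over 19568 genes), gave p-values at the price of 1 residual degree of freedom. It took genes read on at least 2 arrays, which let in 21 Wnt genes, 18 of them read on all 4. Of those 18, limma called Fzd3 and Fzd4 higher with daidzein and 6 lower, Wnt4, Wnt5a, Wnt6, Wnt10a, Fzd2 and Sfrp2. It called 8.74% of all genes read on all 4 arrays higher and 7.09% lower (8.61% and 6.88% of all genes that entered). By role, 0 of 6 ligands were higher and 4 lower, 2 of 7 frizzled receptors were higher and 1 lower, 0 of 3 co-receptors were called, and of the antagonists Dkk3 and Sfrp2, Sfrp2 was lower. Sfrp5 passed the same threshold, but it entered only through the daidzein arrays, where it was read, so its direction was fixed by the filter and that call is no test. The daidzein effect in this limma fit was -0.80 (SE 0.07, adjusted p = 1.571e-09) for Wnt6, 1.16 (SE 0.11, adjusted p = 4.166e-09) for Fzd3 and -0.98 (SE 0.12, adjusted p = 9.441e-07) for Sfrp2. Wnt10a had the least certain call in limma (-0.63, SE 0.17, adjusted p = 0.01188), and Wnt9a missed the threshold (-0.42, adjusted p = 0.06713). Without the intensity trend limma called 0 of the 21 Wnt genes for daidzein in either direction, with a smallest adjusted p of 0.07119, and 0 of all genes. An unadjusted p under 0.05 in limma without the trend was found for 10 of the 21, beside 3411 of all 19568 genes. The calls therefore rest on the intensity trend, and the differences per pair given above do not.

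With PT, no Wnt gene read on both arrays differed by 2-fold. The same limma fit called Wnt5a lower with PT (-0.26, SE 0.07, adjusted p = 0.04939) and no Wnt gene higher. After adjustment, 2.83% of all genes that entered were called higher and 0.562% lower, and of those read on all 4 arrays 2.5% and 0.537%. At an unadjusted p under 0.05 in limma, 0 of the 21 Wnt genes were higher and 3 lower, beside 1408 higher and 760 lower of all 19568 genes. The Wnt5a call was lost with the normexp background, quantile normalization, scaling to the spike-in spots, the deposited series table, the mean over probes and the fit without trend. Scaling to the spike-in spots moved the median of all genes for PT over PBS from -0.02 to 0.12, and the PT signs of weakly differing genes with it, so that Fzd4 became 0.13, Lrp6 0.12 and Lrp5 0.02. Among the 18 genes, the largest differences for PT over PBS were those of Fzd5 and Fzd8 above, then Ror2 (0.33 ± 0.33) and Wnt10a (-0.32 ± 0.33). For daidzein+PT over daidzein the largest was Wnt9a (-0.49 ± 0.33), followed by Wnt5a (-0.30 ± 0.14), Wnt4 (-0.26 ± 0.14) and Wnt10a (-0.26 ± 0.33). All 6 ligands were below 0 in that comparison, with a median of -0.26 against 0.01 over all genes. Of all genes, 8578 of 18569 were below 0 there. Among the 6 ligands, Wnt1 turned above 0 with spike-in scaling and with the mean over probes.

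How far the agents depended on each other was read as the PT difference with daidzein minus that without it. For most Wnt genes it was small: 0.02 for Fzd1 and Fzd4, 0.03 for Fzd2, 0.06 for Wnt10a, 0.12 for Fzd3 and -0.13 for Wnt6 and Sfrp2. The largest were -0.39 for Ror2, 0.38 for Fzd5 and 0.37 for Dkk3, all of them dim genes. Wnt4, of the middle signal group, had -0.28, against 0.05 from its second probe.

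Other genes of the pathway, taken from lists by textbook role, were read in the same way. Of all genes, 2.52% were 2-fold higher and 0.547% lower for daidzein+PT over PBS. In limma, 8.61% of all genes that entered were called higher and 6.88% lower for daidzein, and 2.83% and 0.562% for PT. None of the 3 genes listed under Wnt secretion (Porcn, Wls and Notum) was at 2-fold for daidzein+PT over PBS, with a median of -0.16, and limma called none for either agent. Notum is not itself a secretion gene, and it is also on the target gene list below. Wls, which carries Wnt proteins to the surface, differed by -0.23. None of 17 cytoplasmic genes was at 2-fold, and their median was -0.02. Ctnnb1, which encodes beta-catenin, differed by -0.27, Tnks by -0.38, Dvl2 by -0.33 and Fam123b (Amer1) by 0.31, which was the only one limma called for daidzein. Of 11 nuclear genes read, Lef1 was at 2-fold. Lef1, a partner of beta-catenin on DNA, read 0.62 with PBS, 1.34 with daidzein, 1.14 with PT and 1.75 with daidzein+PT. PBS was the lowest and daidzein+PT the highest, at 1.13 ± 0.14 over PBS. Of 12 nuclear genes that entered, the limma fit called Lef1 higher for daidzein and for PT, and Tle1 higher for daidzein (0.30 for daidzein+PT over PBS). It called Tle3 lower for daidzein (-0.21 for daidzein+PT over PBS). The Tle3 difference was -0.45 ± 0.14 for daidzein over PBS and -0.09 ± 0.14 for daidzein+PT over PT, so only the first exceeds the spread.

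The target gene list, 23 genes with 13 read for daidzein+PT over PBS, went in both directions. Znrf3, Lef1 and Tnfrsf19 were at 2-fold higher (2.52% of all genes were) and none lower (0.547%), with a median of -0.20. For daidzein the limma fit called 2 of 13 higher (Lef1 and Znrf3) and 7 lower (Ccnd1, Cd44, Fosl1, Jun, Nkd2, Wisp1 and Wisp2), beside the 8.61% and 6.88% of all genes given above. For PT it called Lef1 and Tnfrsf19 higher and Wisp2 and Jun lower (2.83% and 0.562% of all genes), and Tnfrsf19 was not well above background on the daidzein array. Ccnd1, which encodes cyclin D1, read 3.96, 3.32, 3.78 and 3.25 on the PBS, daidzein, PT and daidzein+PT arrays, low on both with daidzein. Wisp1 read 3.80, 3.28, 3.54 and 3.07, and Wisp2 0.40, 0.13, 0.06 and -0.41, lowest with both agents. Many genes of this list also answer to other pathways. The R-spondin list holds the R-spondins, which keep frizzled receptors on the cell surface by acting on Znrf3 and Rnf43. It also holds the Lgr genes, Znrf3, Rnf43 and the Kremen genes, and 4 of its 11 genes were read for daidzein+PT over PBS. Znrf3, a ligase that removes frizzled receptors, read -3.13, -2.87, -3.84 and -1.79. Its difference was 0.25 ± 0.33 for daidzein over PBS and 2.05 ± 0.33 for daidzein+PT over PT, so that the pairs disagree. Rspo2, dim on all 4 arrays, differed by 1.06 for daidzein+PT over PBS, Lgr4 by 0.12 and Kremen1 by -0.23. None of 10 genes of planar polarity and other receptors was at 2-fold, with Daam2 at -0.48, Vangl1 at -0.31, Ryk at -0.30 and Celsr2 at -0.24. Of the 11 that entered the fit, limma called Daam2 and Vangl1 lower for daidzein (6.88% of all genes were).

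**Figure D5:**
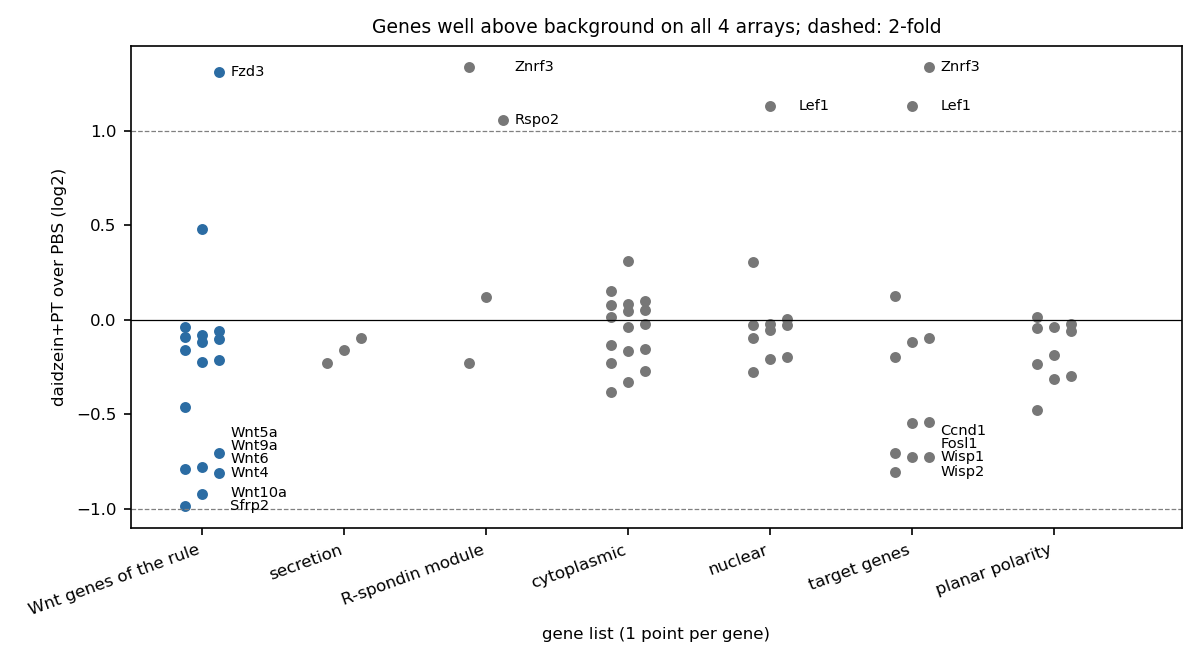
Log2 difference of daidzein+PT over PBS (vertical axis) for the Wnt genes (blue) and the genes of 6 pathway lists (grey) that were well above background on all 4 arrays, with 1 point per gene and dashed lines at 2-fold. Fzd3 lies above the upper line, as do Znrf3, Rspo2 and Lef1, while 5 ligands and Sfrp2 lie between -0.71 and -0.98.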

How the data were processed

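RNA of 4 groups of 3T3-L1 adipocytes (PBS, daidzein, PT, daidzein+PT) was hybridised to 1 Agilent single-colour array each, per the labels. The deposited scanner tables give for each spot an intensity that Agilent Feature Extraction had background-subtracted and detrended, a raw mean intensity and a local background, per the file headers. The headers name version 10.7.1.1 and the submitters' processing notes 9.5.1.1. The deposited flags (well above background, outlier, control; no fixed unit) were used as given. The deposited series table holds an intensity and served only as an alternative; the authors' normalization of it is not given in the sources used here.

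Controls and flagged outliers were dropped, spots of a probe averaged, and log2 intensities reduced by the 75th percentile of the array. Over 432 probes spotted several times, the median SD between spots was 0.080 to 0.085 log2 units. A gene entered a comparison when well above background on both arrays. Both daidzein pairs and both PT pairs were read separately, since they share no array. An additive model was fitted in limma 3.58.1 (R 4.3.3), with Benjamini-Hochberg adjustment over the 19568 genes read on at least 2 arrays. In simulated data it called 96 of 100 genes with a 2-fold daidzein effect, and 54 without the intensity trend. The simulation drew independent noise, with 1 SD per signal group and no dependence between the agents. It therefore cannot show that the calls on these arrays are right. As each group is 1 array, the p-values of the fit set each effect against the departure from additivity and not against a spread between replicates.

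Gene names are those of the array design; 43 of 44 accessions matched a RefSeq table, all with the same symbol. Probe positions, on mm9, come from the deposited tables; exon or UTR placement was not analysed here. Promoter windows are on GRCm38.p6, and 30 of the 44 genes had one.

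The Wnt genes and the lists were chosen with earlier results of these data known. Values on all arrays are given for genes at 2-fold, with a bound of 2-fold, or at 1.5-fold in both pairs of an agent, for the 3 largest interactions, the 5 brightest genes and a list of genes known in adipocytes; of each pathway list up to 4 genes are named by their difference for daidzein+PT over PBS, and further list genes that limma called, and those of the closing section, were added after their values were seen. Alternatives were normexp background correction (offset 50), quantile normalization, spike-in scaling (6 probes), the series table, no filter on dim probes, the mean over probes, a 1.5-fold threshold and no intensity trend.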

Additional observations from a re-analysis of the deposited data

How the results depend on the processing

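No paired analysis was possible because each group is 1 array and the labels carry no replicate numbers. Of 74 differences of single Wnt genes, 67 to 74 moved by less than 1 SD under each of the 6 alternative settings of scaling, background, filter and probe choice, and 0 to 8 changed sign, none of which was at 1.5-fold. Dropping the filter keeps the same probe values, so that setting could not move a difference and says nothing about stability. With normexp, none was at 2-fold higher for daidzein over PBS (0) or daidzein+PT over PT (0), nor lower for the latter (0). With quantile normalization, 1 was lower for daidzein+PT over PBS. The 1 Wnt gene that limma called lower for PT became 0 with normexp, quantile normalization, spike-in scaling, the series table, the mean over probes and no trend. Without the trend the daidzein calls were 0 higher and 0 lower. With no filter on dim probes, the Wnt genes at 2-fold were 4 higher and 1 lower for daidzein over PBS, 4 and 3 for daidzein+PT over PT, 3 and 1 for PT over PBS, 2 and 2 for daidzein+PT over daidzein, and 3 and 1 for daidzein+PT over PBS. In that setting 8 had an interaction of 2-fold, and limma called 1 higher and 2 lower for PT. These counts take in spots not well above background. The share of all genes without the filter was not counted, so they have no background to be read against. At 1.5-fold, 3 were lower for daidzein over PBS (460 of all 18915 genes), 4 for daidzein+PT over PT (665 of 18514) and 6 for daidzein+PT over PBS (544 of 18461), with Fzd3 alone higher in each (586, 936 and 1117 of all genes), and 1 was higher for daidzein+PT over daidzein (604 of 18569). The daidzein calls of limma were alike elsewhere, 2 to 4 higher and 5 or 6 lower: Wnt10a was lost with normexp, no filter and the mean over probes, Sfrp5 with normexp, and Wnt8b was added with no filter; Sfrp5 and Wnt8b are genes read only with daidzein. The number of arrays limits precision, and genes near background most.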

Other observations

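A few genes of the pathway lists were read on some arrays only. Nkd1, an inhibitor of the pathway that binds dishevelled, was well above background with daidzein alone, at a scaled log2 signal of -0.22 against -4.81 with PBS, -4.76 with PT and -6.29 with daidzein+PT. Rspo3 was read with PT alone (-3.42), against -5.09 with PBS, -5.64 with daidzein and -6.21 with daidzein+PT. Tnfrsf19 was read at -4.30 with PBS, -3.99 with PT and -1.35 with daidzein+PT, and was not well above background with daidzein (-5.19). In each case an array that shared the agent did not share the signal, and no second sample exists to repeat it.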
